A study of Arabidopsis thaliana with 4 samples.

Results

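The stretch described here is the block of array tiles on plates TC00 to TC16 of an H3K9me3 chromatin immunoprecipitation array study of Arabidopsis thaliana seedlings. A tile is a stretch of sequence on the array, and its identifier gives a set, a plate number, a row from A to H and a column from 1 to 12, as in TC10E01. The block holds 1282 of the 21716 plate-well tiles that have a score (5.9%). It was chosen by plate number, and its limits were set with these scores known, since it lies between the set TB and a low-scoring stretch on plates TC17 to TC25. All differences between these tiles and other tiles are therefore given as descriptions, with no test. Plates TC00 to TC12 carry 96 tiles each and plate TC13 carries 34, ending at well C10. Tiles of plates TC14 to TC16 were not analysed here. The next scored tile is TC17D01.

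The study has 1 group of samples. Seedlings were of ecotype Col-0, the strain most used in the laboratory. Chromatin pulled down with an antibody against trimethylated lysine 9 of histone H3 (vendor Upstate) was set against input chromatin, which is chromatin taken before the pull-down. The labels give an age of 10 days and, in the growth protocol, 10 to 11 days, with growth in liquid MS medium at 22 °C with a 16 h photoperiod, and no treatment. There were 2 chromatin preparations, I and II, each hybridised on a pair of arrays with the dyes exchanged, which makes 4 arrays. Whole seedlings mix many cell types, so a mark present in fewer cells and a mark weaker in every cell cannot be told apart.

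Histone H3 is one of the proteins around which DNA is wound, and methyl groups on its lysine 9 are a marker of the state of the chromatin. In animals the trimethylated form marks condensed, silent chromatin. In Arabidopsis that part is played mainly by the dimethylated form, laid down by the histone methyltransferase KRYPTONITE at transposons and repeats and coupled to DNA methylation by CHROMOMETHYLASE3, while the trimethylated form has been described mainly over genes. Whether tiles with adjacent identifiers also adjoin each other in the genome is not known here, so "neighbour" below means the next identifier.

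The measured value is a signed score for each tile. Both arrays of a pair hold identical scores in all 1282 tiles, so each preparation gives 1 value and n is 2. Every score below is the difference from the median of all 21716 tiles in the same preparation, in score units. The sources used here give neither the log base nor the scaling, nor whether the immunoprecipitate or the input stands on top. "High" and "low" thus refer to the score only, and no fold change is given. None of the 1282 identifiers was found in a table of TAIR10.1 genes, so no gene, sequence or genome position is attached to a tile. The number of preparations limits the precision.

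The tiles of the block covered a continuous range of scores, with 45.9% at 0 or less in the mean of both preparations, against 50.4% of the other tiles. They had a median score of 0.061 in preparation I and 0.079 in preparation II, close to the median of the whole array, against -0.0038 and -0.0054 over the 20434 other tiles. The upper end was higher than elsewhere: the 90th percentile lay at 1.45 in preparation I and 1.18 in preparation II, against 1.22 and 0.99 in the other tiles. The lower end was less low: the 10th percentile was -0.48 in I and -0.44 in II, against -0.51 and -0.59. Plates TB50 to TB99, before the block, were alike: their 90th percentile was 1.46 in I and 1.22 in II. Their 10th percentile was -0.39 in I and -0.37 in II, so neither trait was particular to the block.

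The mean of both preparations was at least 1 in 200 tiles of the block (15.6%), where 11.9% of all tiles on the array reached that score. It was at least 1.5 in 89 tiles (6.94%), against 4.58% of all tiles, and at least 2 in 21 tiles (1.64%), against 0.806% of all tiles. At the low end no tile of the block had a mean of -1 or less, while 0.327% of all tiles did. A mean of -0.5 or less was found in 86 tiles (6.71%), against 11.2% of all tiles. In a single preparation 1 tile each reached -1, TC10D02 at -1.07 in preparation I (-0.56 in II) and TC02F04 at -1.10 in preparation II (-0.85 in I). The distribution in bins shows the difference at both ends, with more tiles in each bin above 0.5 and fewer below -0.5.

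**Figure D1:**
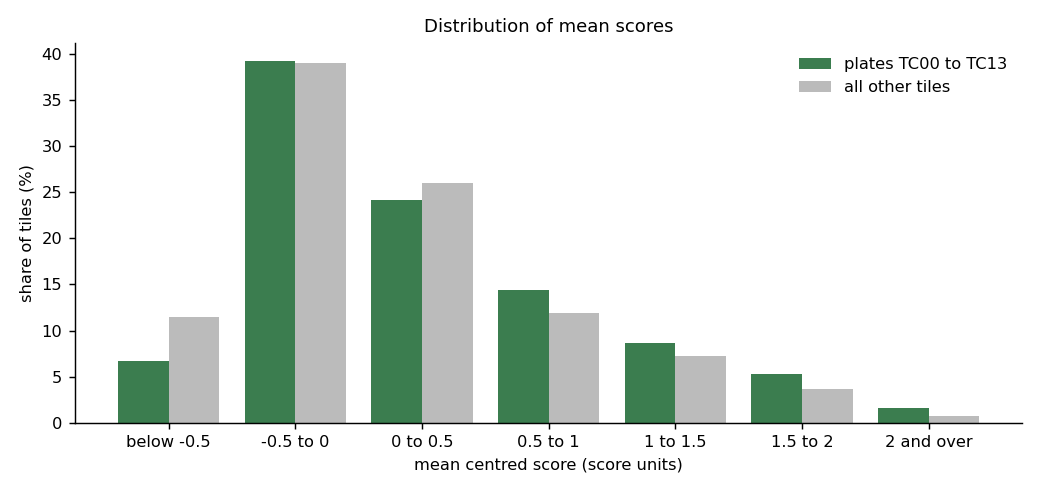
Share of tiles (percent, vertical axis) in bins of the mean centred score (score units, horizontal axis) for the 1282 tiles of plates TC00 to TC13 and the 20434 other tiles. Of the block's tiles 6.71% lie below -0.5, against 11.5% of the others, and 1.64% lie at 2 or more, against 0.754%.

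A test of each tile against the array median was fitted with limma over all 21716 tiles (two-sided, Benjamini-Hochberg adjusted p under 0.05). In the block 479 tiles were called higher (37.4%), where 31.6% of all tiles were called higher, and 225 were called lower (17.6%), where 25.0% of all tiles were called lower. The other 578 tiles passed in neither direction. Because the block was delimited on these same scores, nothing is read from these counts. With 2 preparations, limma gave all tiles 1 shared spread of 0.200 score units (SD), so that the call was in effect a limit of 0.31 on the size of the mean score. Without any centring 76 block tiles were higher and 1014 lower, against 664 and 18246 of all 21716 tiles. The calls thus rest on where the zero is set.

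The high tiles were not spread evenly along the block. On the later plates, TC05 to TC13, 168 of 802 tiles had a mean of at least 1 (20.9%), against 32 of 480 tiles (6.67%) on plates TC00 to TC04. In preparation I alone 186 tiles of the later plates reached 1, against 43 of the earlier, and in preparation II alone 148, against 22. The median mean score was 0.22 on the later plates and -0.10 on the earlier ones. Tiles at 0 or less made up 37.0% of the later and 60.8% of the earlier plates. This division was drawn after the plate values had been seen, so the contrast is a description.

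Every plate from TC00 to TC04 had a median below 0 in both preparations. The lowest plate by its median in the mean of both was TC00, at -0.23, with -0.16 in preparation I and -0.15 in preparation II (the median of the tile means need not lie between these). In each preparation alone plate TC01 was lower, at -0.19 in I and -0.20 in II. Plate TC03 held the fewest high tiles, 3 of 96 (3.12%), and its 90th percentile was 0.49. Plate TC02 was the richest of these 5 plates in high tiles, with 12 (12.5%).

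The step came within plate TC05. Its rows A and B, of 12 wells each, had median scores of 0.066 and -0.19, like those of the plates before it. Row C had a median of 0.75, and rows C to H lay between 0.48 and 0.96. Plate TC05 as a whole had the highest median of the block, 0.54 in preparation I and 0.48 in preparation II, and 28 high tiles (29.2%). Among the 194 plates of the array with all 96 tiles measured it ranked at position 3 by the median of the mean score. Plate TC07 held as many high tiles, 28, with a lower median of 0.32 in preparation I and 0.29 in preparation II.

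From TC06 to TC12 the plate medians in the mean of both stayed between -0.0022 and 0.31, and 10 to 28 tiles a plate were at 1 or more. Plate TC11 was the poorest of them in high tiles, with 10 of 96 (10.4%) and medians of 0.029 in preparation I and 0.029 in preparation II. Plate TC10 had 25 high tiles (26.0%), of which 14 formed a single run. Its medians were 0.18 in I and 0.21 in II, and 39 of its tiles had a mean of 0 or less. The shorter plate TC13 had medians of 0.034 in I and -0.031 in II, and 6 of its 34 tiles were at 1 or more. It ended low: the 10 tiles of its row C had a median mean score of -0.55, against 0.77 in its row A.

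**Figure D2:**
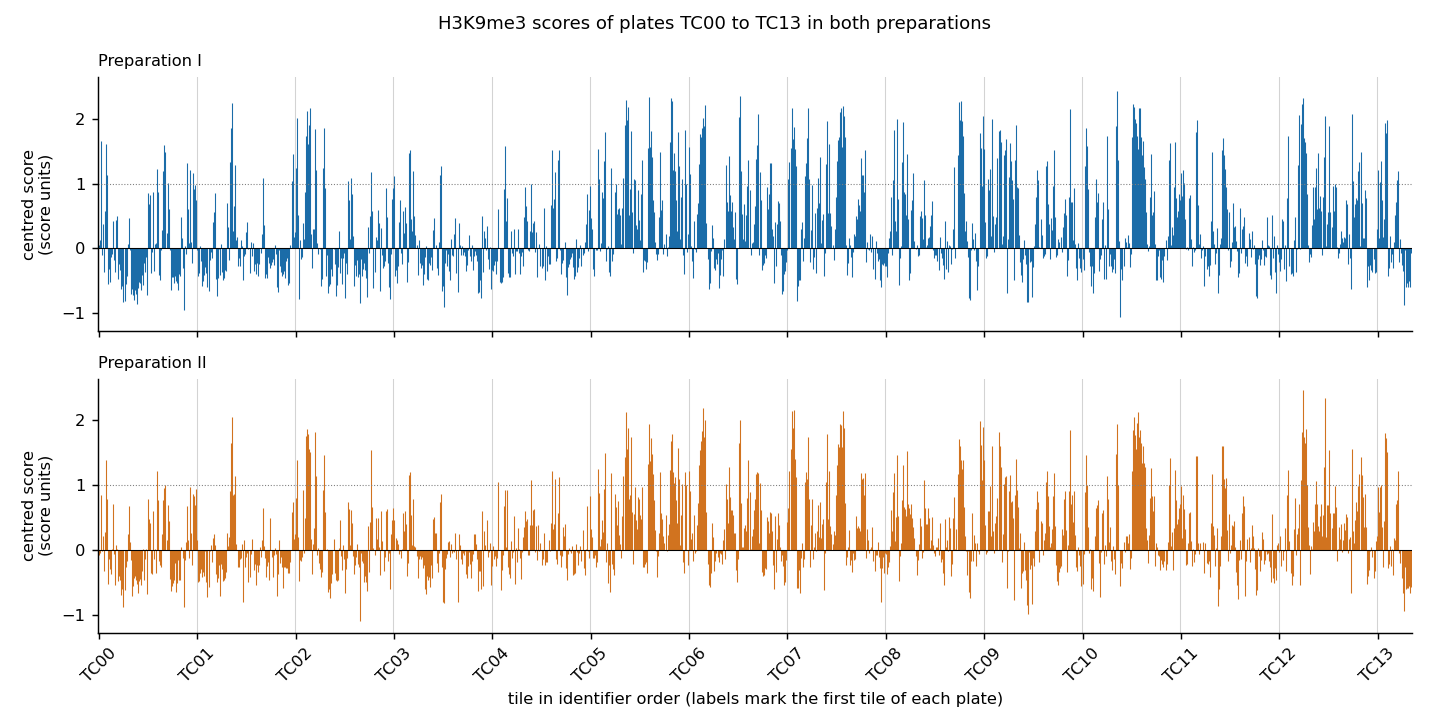
Centred score (score units, vertical axis) of each of the 1282 tiles in identifier order (horizontal axis, with the first tile of each plate marked), preparation I above and preparation II below. The dotted line marks a score of 1, which 20.9% of tiles reached in the mean of both on plates TC05 to TC13, against 6.67% on TC00 to TC04.

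**Figure D3:**
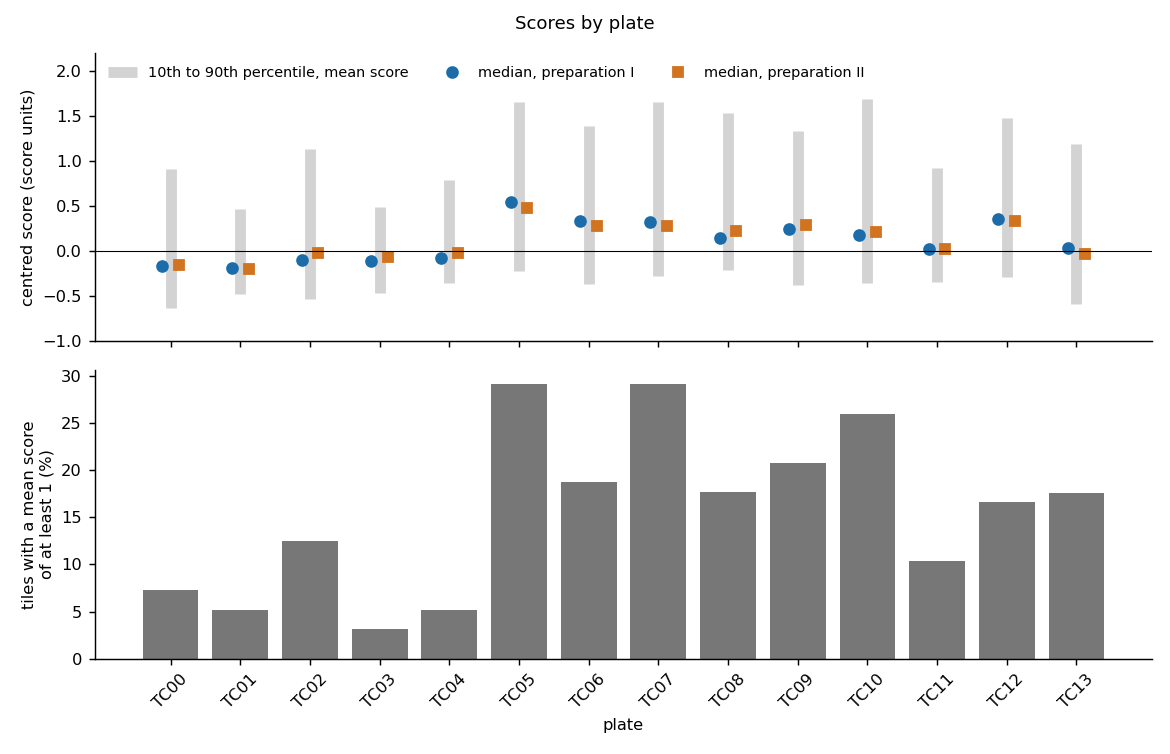
Upper panel: median centred score (score units) of each plate in preparations I and II, with a bar from the 10th to the 90th percentile of the mean of both. Lower panel: percentage of tiles with a mean score of at least 1. Medians lie below 0 on the 5 plates from TC00 to TC04, and plate TC05 is the highest, at 0.54 in preparation I and 0.48 in preparation II.

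The block begins where the identifiers change from set TB to set TC. Plates TC00 to TC04 each held 3 to 12 high tiles, against 13 to 19 on plates TB96 to TB99 before them. Plate TC00 had medians of -0.16 in preparation I and -0.15 in II, and 7 high tiles, against -0.12 in I, -0.022 in II and 14 high tiles on plate TB99 just before it. The first 12 tiles of TC00 had a median of 0.086 in preparation I and -0.040 in II, against -0.024 and 0.033 in the last 12 tiles of TB99. The first tile, TC00A01, scored 0.047 in I and -0.083 in II, against 1.39 and 0.999 in TB99H12 before it. At the end of the block scores were low before the last tile was reached, and the last 13 tiles, from TC13B10 on, had a mean of 0 or less. The last 12 of these had medians of -0.43 in preparation I and -0.58 in preparation II. The last tile, TC13C10, scored -0.077 in I and -0.57 in II. The next scored tile, TC17D01, scored -0.29 and -0.71, and the first 12 scored tiles of plate TC17 had medians of -0.54 in I and -0.92 in II. On plate TC17 as a whole 0 of 60 tiles reached 1.

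The 200 tiles with a mean of at least 1 fell into 93 runs of consecutive tiles, with a mean length of 2.15 tiles, against 2.05 in the other tiles of the array. Single tiles made 54 of the runs (58.1%), against 44.4% of the runs elsewhere, and held 27.0% of the high tiles, against 21.6%. Pairs made 17 of the 93 runs, against 352 of the 1161 runs elsewhere. Runs of 3 or more tiles made 22 of the 93 runs, against 293 of 1161 elsewhere. These 22 runs held 112 tiles, which is 56.0% of the high tiles of the block, against 48.8% in the other tiles. Of these 22 runs 20 lay on plates TC05 to TC13 and 2 on plates TC00 to TC04. The gap from the end of one run to the start of the next had a median of 6 tiles on the later plates and of 13.5 tiles on the earlier ones. The longest gap, 61 tiles, lay between TC03D11 and TC04B01, and one of 60 tiles lay between TC11D09 and TC12A10.

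The longest high run of the block spanned 14 tiles, from TC10E01 to TC10F02. In tile order its scores in preparation I were 1.72, 2.23, 2.18, 2.00, 1.93, 1.73, 1.53, 2.16, 2.17, 1.72, 1.44, 1.66, 1.25 and 1.07. In preparation II they were 1.22, 1.86, 2.04, 1.77, 1.56, 1.96, 2.13, 1.74, 1.85, 1.65, 1.35, 1.60, 1.34 and 1.28. All 14 tiles were thus above 1 in both preparations, and the tile on each side was below 1 in both. The run began with a steep edge: TC10D12, just before it, scored -0.094 in preparation I and -0.13 in II, and TC10E01 was already at 1.72 and 1.22. It ended in a slope over several tiles, down to TC10F03 at 0.56 and 0.33. The mean over its 14 tiles was 1.77 ± 0.36 in I and 1.67 ± 0.29 in II (SD), and its highest tile was TC10E03, at 2.11 ± 0.096 (SD, n = 2 preparations).

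The run that followed in length had 9 tiles, from TC07E01 to TC07E09. Its mean over tiles was 1.84 ± 0.30 in I and 1.64 ± 0.42 in II (SD), with TC07E07 the highest at 2.17 ± 0.037 (SD, n = 2). Its slopes were the other way round. The scores climbed over several tiles, with TC07D12 at 0.80 in I and 0.85 in II before the run, and dropped behind TC07E08, which scored 2.05 and 1.89. The last tile, TC07E09, was at 1.71 in preparation I and at 0.73 in preparation II, and TC07E10 was at 0.051 and -0.23. In preparation II alone the run was therefore 8 tiles long.

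Runs of 7 tiles shared the next place. One went from TC06A11 to TC06B05, with a mean of 1.82 ± 0.28 in I and 1.76 ± 0.29 in II. It ended at its highest tile, TC06B05, with 2.21 in I and 2.01 in II, and TC06B06 behind it had 0.39 and 0.58. The other went from TC07A03 to TC07A09, with a mean of 1.63 ± 0.31 in I and 1.64 ± 0.43 in II, and TC07A05 was its highest tile at 2.17 and 2.15. In preparation I alone it began 1 tile earlier, with TC07A02 at 1.07, against 0.65 in II. Its end was the sharpest edge of the 4 long runs: TC07A09 scored 1.26 in I and 1.13 in II, and TC07A10 scored -0.81 and -0.58. The plots of the runs show how closely the preparations followed each other in these 4 stretches. The tiles of these runs that differed most between them were TC07E09, by 0.98, and TC10E07, with 1.53 in I and 2.13 in II.

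**Figure D4:**
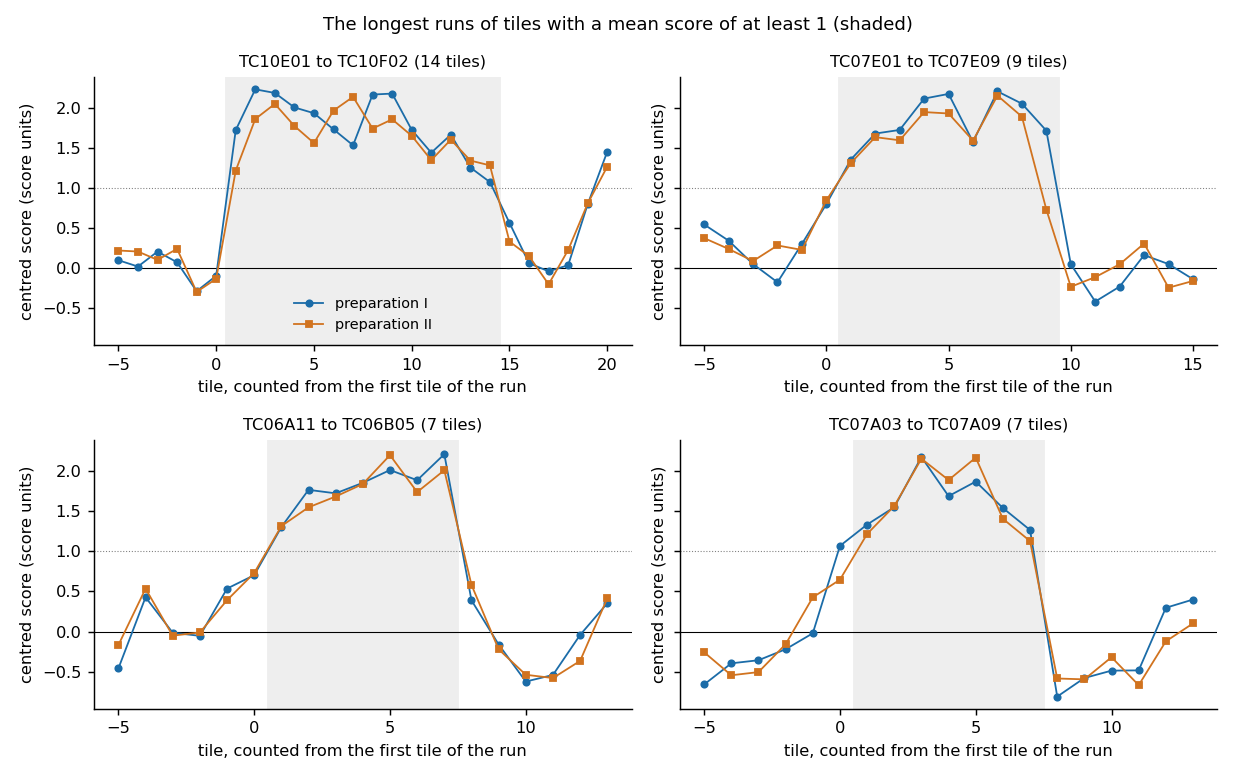
Centred score (score units, vertical axis) by tile (horizontal axis, counted from the first tile of the run, with 6 tiles on either side) in preparations I and II, for the 4 longest runs of tiles with a mean of at least 1 (shaded). The run of 14 tiles from TC10E01 has a steep first edge and a sloping end, and the run from TC07A03 drops to -0.81 in preparation I and -0.58 in preparation II behind its last tile.

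High tiles that stood alone were lower than the summits of the long runs. The 54 single tiles had a median of 1.29, while the summits of the 22 runs of 3 or more tiles had a median of 1.99, a difference that the choice of more tiles per run can produce by itself. By definition the neighbours of a single tile are below 1. Counted on each side of every single tile, 55 of 108 neighbours scored at least 0.5, and 21 were at 0 or less. A tile between a pair of single tiles was counted for each of them. Among the single tiles TC09H01 had the highest mean, 2.00, and its neighbours had 0.85 and 0.71. It was singled out after its values were seen.

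The highest tile of the block was TC12B12, at 2.32 in I and 2.47 in II, a mean of 2.39 ± 0.11 (SD, n = 2). It lay in a run of 6 tiles, and its neighbours TC12B11 and TC12C01 scored 2.03 and 1.72 in the mean of both. Tile TC05C11 followed with 2.29 in preparation I and 2.12 in II (mean 2.21 ± 0.12), and its neighbours TC05C10 and TC05C12 had means of 1.67 and 1.77. TC10C11 had 2.44 and 1.95 (mean 2.19 ± 0.34), and TC06E03 had 2.35 and 2.01 (mean 2.18 ± 0.24). TC12D10, at 2.04 in preparation I and 2.34 in II (mean 2.19 ± 0.21), was less embedded: TC12D09 before it had a mean of 1.35 and TC12D11 behind it 0.12. All 5 lay on plates TC05 to TC12. Their adjusted p values in the limma fit were at most 5.01e-51, which restates that they were picked as extremes. The size of these values rests on the shared spread and on the zero. With limma's trend and robust variance model they were at most 3.11e-14, and without centring at most 1.02e-05.

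Low stretches were taken at 0 or less, a wider limit than that of the high runs, so their depths are not to be compared with those. The longest stretch of tiles with a mean of 0 or less ran over 17 tiles, from TC00C08 to TC00D12. Its mean was -0.58 ± 0.20 in I, where its tiles ranged from -0.85 to -0.13. In II the mean was -0.41 ± 0.22 and the range -0.71 to 0.013 (SD across tiles). It ended abruptly, with TC00D12 at -0.72 in I and -0.67 in II and TC00E01 at 0.86 and 0.79. The following one, of 16 tiles, went from TC03B11 to TC03D02, with a mean of -0.25 ± 0.20 in I and -0.33 ± 0.19 in II and with TC03C10 its lowest tile at -0.49 and -0.47.

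The 5 lowest tiles lay outside those 2 stretches. TC02F04 was the lowest tile, at -0.85 in preparation I and -1.10 in preparation II (mean -0.97 ± 0.18, SD, n = 2). Its neighbours TC02F03 and TC02F05 had means of -0.33 and -0.11, within a stretch of 14 tiles at 0 or less, from TC02E10 to TC02F11. TC00G12, at -0.95 in I and -0.89 in II, stood between tiles at -0.22 and -0.057. TC13C03, at -0.88 and -0.95, lay in the low end of plate TC13. TC09D08, at -0.83 in I and -0.99 in II, had TC09D07 at -0.82 and -0.85 before it. This low pair lay in a low row of plate TC09, row D, whose median mean score was -0.30. TC03E02, at -0.91 and -0.82, had TC03E01 at -0.58 and -0.80 before it.

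Scores of adjacent tiles were alike. Across the 1281 neighbouring pairs Pearson's r was 0.643, against 0.679 over the 20304 pairs of the other tiles. At a distance of 2 tiles r was 0.382, at 3 tiles 0.275, at 6 tiles 0.114 and at 12 tiles 0.040. In the other tiles the correlation declined less with distance, to 0.223 at 6 tiles and 0.178 at 12 tiles. Plates TB50 to TB99 gave 0.624 for neighbours and 0.039 at 12 tiles, close to the values of the block. These correlations are across tiles of the same 2 preparations, which are not independent replicates, and they carry no p. Changes between neighbours could be large: the mean score moved by more than 1 at 119 of the 1281 steps (9.29%), against 6.26% of the steps in the other tiles. Wells taken down the columns of each plate in place of along the rows gave an r of 0.028.

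The 2 preparations agreed closely in the block. Over its 1282 tiles r was 0.929 by Pearson and 0.890 by Spearman, against 0.914 and 0.879 in the other tiles. Both preparations lay on the same side of the array median in 1097 tiles (85.6%), against 85.5% of the other tiles. A score of 1 was reached in at least one preparation by 236 tiles, and 163 of them reached it in both. These 163 were 71.2% of the 229 such tiles of preparation I and 95.9% of the 170 of preparation II, near the 69.8% and 93.9% over all tiles of the array. The agreement also held at the scale of a row of 12 wells, where the medians of the 107 rows correlated with r = 0.945.

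Preparation I ran above preparation II where scores were high, and this was not particular to the block. Among the other tiles of the array 2721 reached 1 in I and 2022 in II, and their 90th percentiles were 1.22 and 0.99. In the 200 block tiles with a mean of at least 1 the difference I minus II averaged 0.25 ± 0.27 (SD across tiles), and I was the higher in 169 of them. In the 493 tiles between 0 and 1 the difference was 0.053 ± 0.29, and in the 589 tiles at 0 or less it was -0.028 ± 0.23. Over the whole block it was 0.047 ± 0.27, against 0.070 ± 0.27 in the other tiles. On plates TC17 to TC25 it was 0.15 ± 0.23 although scores there were low. With identical arrays in each pair, a difference between preparations cannot be tested for any tile.

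The preparations differed by more than 0.5 in 88 tiles (6.86%), against 7.22% of the other tiles. Preparation I was the higher in 64 of the 88 and II in 24. The largest difference was at TC12B08, with 2.06 in preparation I and 0.71 in preparation II, and it was shared by its neighbours. TC12B07 scored 1.28 in I and 0.34 in II, TC12B09 -0.015 and -0.55, and TC12B10 1.91 and 1.08, so that 4 consecutive tiles differed by 0.92 on average. This was the longest such stretch of the block. Its last tile, TC12B10, opens the run of 6 tiles that holds TC12B12, the highest tile, where the difference I minus II was -0.15. TC12D03, on the same plate, scored 1.48 in I and 0.37 in II.

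In the opposite direction TC08B12 scored -0.48 in preparation I and 0.65 in preparation II. Its neighbour TC08C01 scored -0.38 and 0.55, and the tiles on either side of this pair, TC08B11 and TC08C02, differed by -0.25 and -0.11. The SD of the difference across the tiles of a plate was 0.36 on TC12 and 0.35 on TC08, positions 5 and 9 among the 194 fully measured plates of the array. The other fully measured plates of the block lay between 0.24 and 0.29. Differences of adjacent tiles correlated with r = 0.323 in the block and with the same r of 0.323 in the other tiles.

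**Figure D5:**
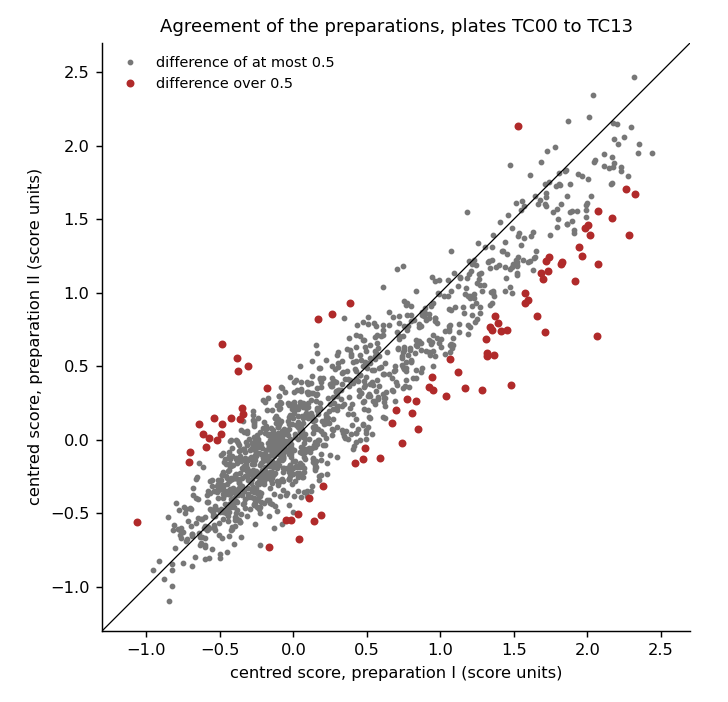
Centred score in preparation II (vertical axis) against preparation I (horizontal axis), both in score units, for the 1282 tiles, with the line of equality. The 88 tiles whose preparations differ by more than 0.5 are in red, 64 of them below the line, where preparation I is the higher.

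Of the stretches next to it in identifier order the block was more like plates TB50 to TB99 than plates TC17 to TC25. A mean of at least 1 was found in 15.6% of its tiles, against 17.9% of the 4781 tiles of TB50 to TB99 and 0.373% of the 804 tiles of TC17 to TC25. Its longest run of such tiles was 14, against 13 on TB50 to TB99 and 1 on TC17 to TC25. The preparations correlated with r = 0.929 in the block, against 0.922 on TB50 to TB99 and 0.771 on TC17 to TC25. By position of the well on its plate, the medians of the 8 rows in the block lay between -0.062 and 0.13. Those of the 12 columns lay between 0.0022 and 0.13. An effect of well position was not tested.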

How the data were processed

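The authors deposited 1 signed score per feature and array. The sources used here do not give how it was made, so its background correction, normalization, log base, centring and direction are unknown. The deposited median was -1.09 for preparation I and -1.35 for II. No spot brightness was used, so no tile was filtered on weak signal. Both arrays of a dye-swap pair were averaged to 1 value per preparation, and each preparation was centred on its median over the 21716 scored plate-well tiles. The other 84 of 21800 features have no score.

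All scored tiles were fitted together with limma 3.58.1 in R 4.3.3 (lmFit and eBayes, mean of both preparations against 0). The code was tested on simulated independent noise with the fitted shared SD, which cannot show whether the model suits these data. Medians, runs and correlations were computed with numpy 2.4.6 and pandas 2.3.3. Nothing in the labels says that the preparations came from separate cultures, so p-values measure only the spread between preparations. That spread was pooled over all tiles, so a tile's own difference between preparations did not enter its p-value. The block and the rules were chosen with earlier results of these data known. Tiles named are the 5 highest and 5 lowest, the ends and summits of the 3 longest high runs (a tie gave 4) and the 2 longest low runs, the 2 largest differences between preparations each way, the block's ends, the plates highest and lowest in median and in high tiles, and neighbours of these. Other tiles and plates, and the division at TC05, were picked after their values were seen. Alternatives changed centring, scaling, variance model, threshold, size, sign, order, block limits and preparations used.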

Additional observations from a re-analysis of the deposited data

How the results depend on the processing

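Without centring, which was run for the limma calls alone, and with other limits the counts moved. In place of 479 tiles called higher by limma there were 76 without centring and 247 with a minimum difference of 0.5, and in place of 225 lower there were 1014 without centring, 91 with each preparation's mode as zero, 6 with the minimum difference and 147 at an adjusted p under 0.01. Counts over all 21716 tiles moved with the same settings. In place of 6856 tiles called higher there were 664 without centring and 3227 with the minimum difference. In place of 5420 lower there were 18246 without centring and 2521 with the mode as zero. The minimum difference gave 235 lower, and an adjusted p under 0.01 gave 3851. In the block 384 tiles were at least 0.5 in size on the high side and 86 on the low side, and 89 were at least 1.5 on the high side. Turned signs gave 0 high and 200 low tiles. With 1 preparation left out there were 170 to 229 high tiles and 1 low tile (1 to 1). The block median of 0.062 became 0.21 with the mode as zero and 0.085 without the first and last plate, and 0.061 to 0.079 with 1 preparation left out. The correlation of neighbouring tiles was 0.028 in column order, 0.60 with plate means subtracted and 0.622 to 0.640 in 1 preparation. The share of tiles at 1 or more was 14.3 percentage points higher on plates TC05 to TC13 than on TC00 to TC04. This became 16.2 with the mode as zero, 20.9 at a size of 0.5, 7.77 at a size of 1.5, 13.9 with the division at well TC05C01, and 13.9 to 14.2 with 1 preparation left out. The longest run was 13 or 14 tiles in each of the 5 settings tried. These settings for the run and for the division were chosen after seeing the data. All 60 values of the 10 extreme tiles, over 6 alternatives, kept their direction and side of the limma threshold, which their choice as extremes favours. No limma test is possible with 1 preparation. No paired analysis was possible because there is 1 group. The causes of these changes were not tested beyond what each setting alters by construction.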
